A study of Homo sapiens with 2 samples.

Results

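The 30 genes described here are ATF4, the factors it works with and genes of amino acid supply that it is known to induce. They were chosen as a list of symbols, and their transcripts were taken as the RefSeq models of those symbols plus assembled models that shared an exact intron with them on the same strand. They are 30 of 21373 genes with 300 or more bases of RefSeq exon. They were carried by 91 of 65434 transcript models in the control assembly and by 90 of 66837 in the assembly labelled knockdown. All 30 were found, and 27 had a mean of 1 FPKM or more over both libraries, a level reached by 12058 genes in all. AARS, GARS and WARS are given under their current symbols AARS1, GARS1 and WARS1.

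Poly(A) RNA was sequenced from HCT116, a human colorectal carcinoma line, engineered with the T-Rex system so that doxycycline switches on a knockdown of USP49, and kept in medium with serum, antibiotics, blasticidin and puromycin. USP49 is a ubiquitin-specific protease known to act on histone H2B. The samples are 1 control library and 1 library that the labels call USP49 knockdown, taken 36 h after doxycycline was added. The treatment protocol is worded alike for both, so whether the RNA control received doxycycline is not stated, nor is whether the line is a single clone.

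ATF4 is the effector of the integrated stress response. Kinases that sense amino acid shortage, unfolded protein, haem lack or double-stranded RNA phosphorylate eIF2α, which lowers general translation but raises translation of the ATF4 message, so that ATF4 activity can change with little change in its RNA. ATF4 pairs with C/EBP and other bZIP proteins on composite DNA elements, and its known targets import amino acids, make asparagine, serine and glycine, charge tRNAs and, through TRIB3, SESN2, DDIT3 and CHAC1, feed back on signalling, survival and glutathione.

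The core of that composite element, TGATGNAA, was searched on both strands from 250 bases before to 50 bases after a single RefSeq start of each gene (GRCh38.p14). Further starts of a gene were not searched. A promoter sequence was at hand for 25 of the 30 genes, and SHMT2, PSPH, ALDH1L2, SLC7A11 and NUPR1 were not searched. The core was in 6 of 25 (24%), against 1003 of 27305 promoters in all (3.67%). Among measured genes it was in 6 of 23 of the list (26.1%), against 156 of 9737 (1.6%). The list was chosen as genes that ATF4 is known to induce, so this share is no separate evidence of a tie to ATF4. The median GC content was 65.3% in the list and 65.7% over measured genes. In SLC3A2 and SLC7A1 the match lay past the start. The other 4 matches lay upstream and are shown 5′ to 3′ on the gene's strand, with the core, or TTNCATCA where it lies on the opposite strand, in capitals. They begin 191 (ATF3), 68 (ASNS), 209 (CHAC1) and 187 (AARS1) bases before the start that was searched. ATF3 has models with different first exons, and which of their starts was searched was not determined, as no coordinates were converted.
ATF3, chr1:212565200-212565239, plus strand: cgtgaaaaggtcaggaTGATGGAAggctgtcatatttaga
ASNS, chr7:97872453-97872492, minus strand: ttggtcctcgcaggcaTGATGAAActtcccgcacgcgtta
CHAC1, chr15:40953246-40953285, plus strand: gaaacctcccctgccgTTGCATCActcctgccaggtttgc
AARS1, chr16:70289670-70289709, minus strand: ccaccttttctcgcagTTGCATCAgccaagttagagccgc
CHAC1 and AARS1 carry the same 8 letters, on the strand opposite to the gene, while ASNS and ATF3 carry 2 other forms on the gene's own strand. A match is a description of these letters, not a site of binding.
CHAC1 stood highest among the 27 measured genes in the comparison below, so its 250 bases upstream of the start are also shown, chr15:40953221-40953470, plus strand: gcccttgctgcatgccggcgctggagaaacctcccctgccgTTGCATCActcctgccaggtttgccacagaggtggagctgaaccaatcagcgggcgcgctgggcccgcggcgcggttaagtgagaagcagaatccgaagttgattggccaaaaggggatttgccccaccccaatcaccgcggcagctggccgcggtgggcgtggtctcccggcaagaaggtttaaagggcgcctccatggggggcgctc

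The control library held 16393993 fragments and the library labelled knockdown 19978906. Each group is a single library, so differences carry no replicate error, and no test or p-value is given. Levels are fragment densities on a gene's RefSeq exons in FPKM, scaled to those totals, and each ratio is the library labelled knockdown over control with an exact 95% counting interval, which covers counting error only, as PCR copies are not independent molecules. Log2 ratios have 1 FPKM added to both values, which understates changes of low genes. Coordinates outside the promoters are hg18 positions as the files give them.

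USP49 itself (chr6:41873361-41971077, minus strand) did not settle the label. Its exon density was 0.893 FPKM in control (46.5 fragments) and 1.09 FPKM in the library labelled knockdown (69 fragments), a log2 ratio of 0.14. Summed over its models it was 2.88 and 1.10 FPKM, a log2 ratio of −0.88. The control models run past the RefSeq end, and 168 fragments of the library labelled knockdown lie in that stretch on a model with no name. Directions below therefore refer to the label. Of 8 markers of this epithelial line 6 were measured in both libraries, from CDX2 (8.26 and 7.46 FPKM) to KRT19 (318.6 and 286.1 FPKM), while LGR5 had 1 fragment in control and VIL1 none in either. Markers of leukocytes and endothelium had at most 10 fragments each. Of the fibroblast genes COL1A1 stood at 6.83 and 6.50 FPKM, with COL1A2 and DCN listed at 0 and LUM at no more than 1 fragment.

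The list was expressed at high levels in both libraries. The median over its 27 measured genes was 29.2 FPKM (mean of both libraries), against 13.5 FPKM over all 12058 genes, and 21 of 27 lay above that median. At 100 FPKM or more stood 7 of 27 (25.9%), against 511 of 12058 (4.24%). The order from the top was SLC7A5, SLC3A2, GARS1, PHGDH, MTHFD2, AARS1 and SHMT2, followed by ASNS, WARS1 and PSAT1. Among these the counting intervals overlapped between SLC3A2 and GARS1 in the library labelled knockdown, where GARS1 was the higher, and between ASNS and WARS1 in both libraries. At the other end NUPR1, CBS and VLDLR were under 1 FPKM. DDIT3 counts among the 27 only through bases it shares with another gene, and stood at 0 on its own bases. Without it the median level of the list was 35.2 FPKM.

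**Figure D1:**
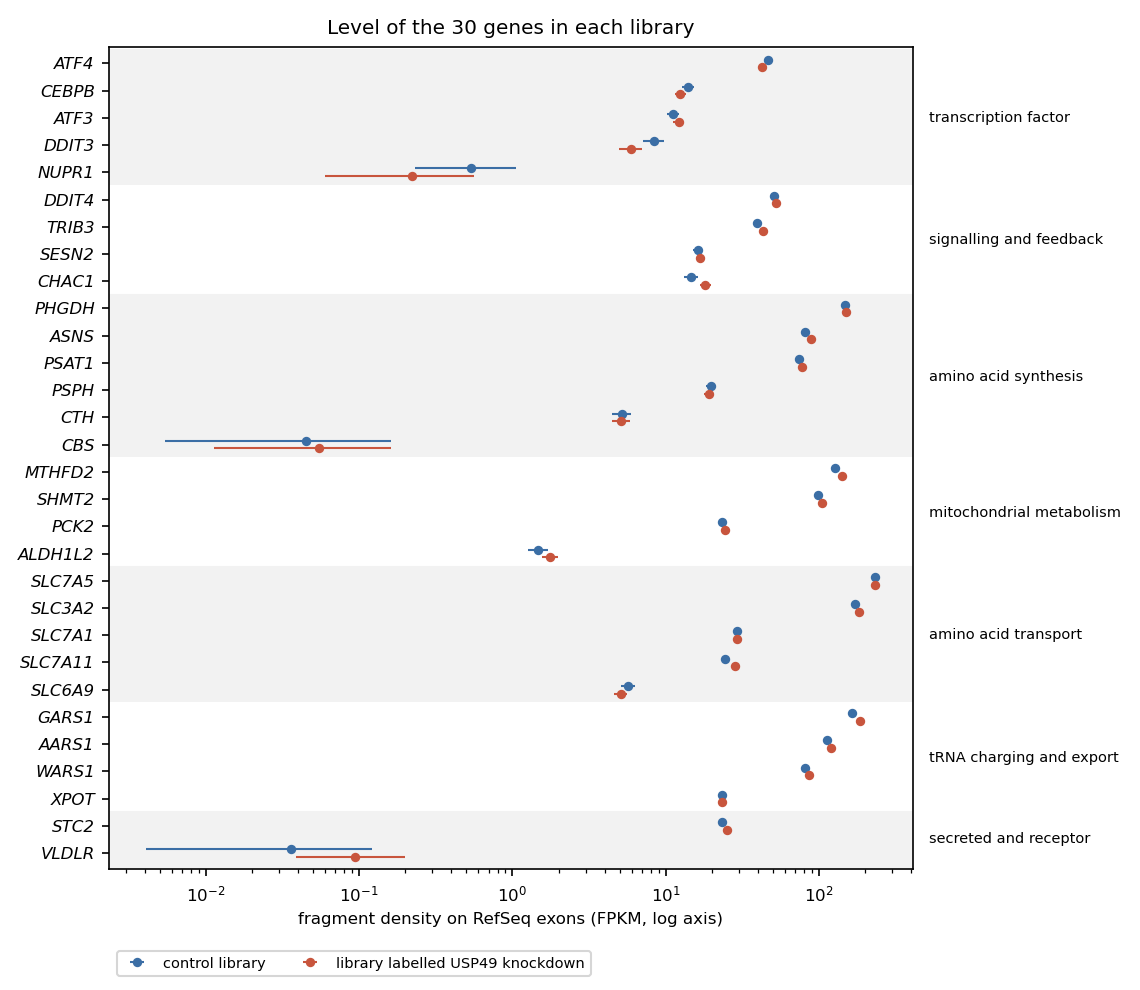
Level of each of the 30 genes in the control library (blue) and the library labelled USP49 knockdown (red), as fragment density on RefSeq exons in FPKM on a log axis, grouped by role; bars are exact 95% Poisson counting intervals. Levels run from 0.0359 FPKM for VLDLR to 231.9 FPKM for SLC7A5 in control, and for most genes the points of both libraries lie close together.

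Differences between the libraries were small. In bulk RNA a different level per cell and a different share of cells cannot be told apart. None of the 27 differed by 2-fold or more, where 0.78% of all measured genes did. CHAC1 was the only gene 1.2-fold or more higher in the library labelled knockdown (1 of 27, against 2.09% of all genes), and DDIT3 the only gene 1.2-fold or more lower (1 of 27, against 3.67%). The DDIT3 value comes from bases it shares with another gene, as given below. The median log2 ratio of the 27 was 0.07, against −0.0043 over all genes, of which 95% lay between −0.31 and 0.24.

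More of the list than of all genes stood slightly above control. A log2 ratio above 0 was found for 18 of 27 (66.7%), against 48.4% of all genes. The counting interval of the ratio lay wholly above 1 for 12 of 27, against 13% of all genes. These 12 include SLC7A11 and STC2. With every fragment of their named models counted instead, their intervals lay below 1 (0.881 to 0.962 and 0.700 to 0.787). On exons the interval lay wholly below 1 for 2 of 27 (ATF4 and DDIT3, the latter through shared bases), against 14%. The interval spanned 1 for the other 13. High genes have narrow intervals, so the same counts were taken at a mean of 10 FPKM or more. There 12 of 23 members lay above 1, against 17.4% of 7192 genes, and 1 of 23 below, against 16.4%. This cut does not match the levels, as the median was 44.4 FPKM for these members and 25.2 FPKM for these genes. The models kept the same introns between libraries for 12 members and 4850 genes in all, with median levels of 48.1 and 18.2 FPKM. Only named models with 5% or more of a gene's named fragments were compared for this. Of these 12, 6 had the interval above 1, against 13%, and 1 below, against 12.6%. The 6 include SLC7A11, which rests on a model with no name. On its named models alone its ratio was 0.921 (0.881 to 0.962), below 1. A log2 ratio above 0 was found for 9 of 12, against 49.4%, CHAC1 was 1.2-fold or more higher, against 0.99%, and none was lower, against 2.21%. As the genes were named with earlier results of these libraries known, and genes of 1 library share its preparation, these shares describe the libraries only. By the sum of FPKM over models 18 of 26 members stood above 0, against 49.8% of genes. By that measure 2 of 26 (CHAC1 and SLC3A2) were 1.2-fold or more higher, against 9.88%, 1 (STC2) lower, against 11.5%, and none 2-fold, against 3.07%. The sign is not fixed for each gene, since the density and the sum stood on the same side of 0 for 18 of 27.

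**Figure D2:**
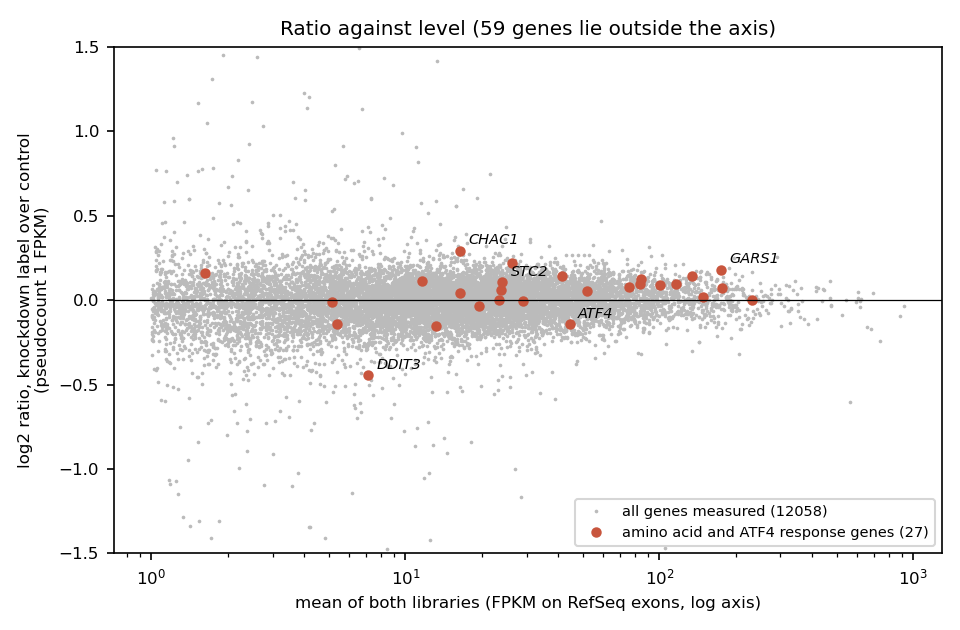
Log2 ratio of the library labelled knockdown over control (pseudocount 1 FPKM) against the mean level on a log axis for 12058 genes (grey) and the 27 measured genes of the list (red); 59 genes lie outside the axis. Of the 27 genes 21 lie above the median level of all genes, and CHAC1 at 0.29 and DDIT3 at −0.45 lie outside the range of −0.31 to 0.24 that holds 95% of all genes.

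Among the transcription factors ATF4 was lower and the others did not move together. ATF4 (chr22:38246515-38248637, plus strand) stood at 46.6 FPKM in control and 42.2 FPKM in the library labelled knockdown, from 1545 and 1705 fragments, a ratio of 0.906 (0.845 to 0.971). Its counting intervals of 44.31 to 48.99 and 40.23 to 44.26 FPKM only just fail to overlap, and 14.4% of all measured genes had a lower log2 ratio. CEBPB, a bZIP factor that pairs with ATF4, stood at 13.9 and 12.5 FPKM, a ratio of 0.894 (0.788 to 1.01). ATF3, a repressor-type bZIP factor induced by stress, stood at 11.1 and 12.1 FPKM, a ratio of 1.09 (0.962 to 1.23). For both of these the interval includes 1. NUPR1, a small stress-induced chromatin protein, had 8 and 4 fragments, or 0.535 and 0.220 FPKM, too few to show a difference at this depth.

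DDIT3, the pro-apoptotic factor CHOP (chr12:56196638-56200567, minus strand), could not be measured on its own. All 6 of its RefSeq models were listed at 0 in both libraries. Its exon density of 8.40 and 5.90 FPKM, a ratio of 0.704 (0.557 to 0.889), came wholly from 68 exonic bases at its end that it shares with MARS1, the methionyl-tRNA synthetase on the opposite strand. MARS1 stood at 145.6 and 156.8 FPKM. In the library labelled knockdown part of MARS1 was carried by a model that covers only 2 of those bases. On the bases of DDIT3 that no other gene holds, the density was 0 in both. Unspliced models with no name lay inside the gene's span, off its exons, holding 56 and 74 fragments in control, against 48 and 77 in the library labelled knockdown.

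Of the genes of signalling and feedback CHAC1 stood out. CHAC1, a cyclotransferase that degrades glutathione (chr15:39032928-39036009, plus strand), stood at 14.6 FPKM in control and 18.1 FPKM in the library labelled knockdown, from 373 and 565 fragments. The ratio was 1.24 (1.09 to 1.42), the sum over its models gave a log2 ratio of 0.30, and 98.4% of all measured genes had a lower ratio on exons. In control 53.8 fragments lay on an assembled model that runs past both RefSeq ends (39032741 to 39036582), of which 36.2 counted on exons. With every fragment of its named models counted, 391 and 565, the ratio was 1.19 (1.04 to 1.35), with a log2 ratio of 0.23 that is short of 1.2-fold. With a pseudocount of 5 FPKM the log2 ratio was 0.24, also short of it. TRIB3, a pseudokinase that restrains ATF4 and AKT (chr20:309308-326203, plus strand), stood at 39.2 and 43.4 FPKM, a ratio of 1.11 (1.04 to 1.18). Its direction turned with the measure, since the sum over models gave 45.1 and 44.3 FPKM. In control its fragments were divided between the RefSeq model (51.7%) and an assembled model that starts further in, at 310112, while all 2127 fragments of the library labelled knockdown lay on the RefSeq model.

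DDIT4, an inhibitor of mTORC1, and SESN2, a leucine sensor upstream of mTORC1, were near equal in both libraries. DDIT4 stood at 50.8 and 52.7 FPKM, a ratio of 1.04 (0.969 to 1.11). SESN2 stood at 16.2 and 16.7 FPKM, a ratio of 1.03 (0.945 to 1.12). On exons 4 of 4 genes of this group had a log2 ratio above 0, against 48.4% of all genes, with a median of 0.10. The intervals of DDIT4 and SESN2 span 1, and by the sum over models TRIB3 was at −0.03.

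Amino acid synthesis differed little, with ASNS the clearest. ASNS, asparagine synthetase and the best known amino acid response gene (chr7:97319365-97339790, minus strand), stood at 81.4 FPKM in control and 88.7 FPKM in the library labelled knockdown, from 3369 and 4476 fragments on 1 model in each. The ratio was 1.09 (1.04 to 1.14) and the sum over models gave the same log2 ratio of 0.12. The serine pathway begins with PHGDH, which stood at 147.8 and 150.03 FPKM, a ratio of 1.02 (0.977 to 1.05). PSAT1, the aminotransferase of its next step, stood at 73.9 and 78.0 FPKM, a ratio of 1.05 (1.00 to 1.11). PSPH, the phosphatase that ends the pathway and has a near-identical copy in the genome, stood at 19.7 and 19.2 FPKM, a ratio of 0.974 (0.879 to 1.08). The first and last enzymes thus have intervals that include 1, and that of PSAT1 begins at 1.00. Of the transsulfuration enzymes, which make cysteine, CTH stood at 5.15 and 5.09 FPKM, a ratio of 0.988 (0.808 to 1.21), and CBS had 2 and 3 fragments.

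Of the mitochondrial enzymes MTHFD2 and SHMT2 had intervals above 1, while those of PCK2 and ALDH1L2 span 1. MTHFD2, the folate dehydrogenase induced in many tumours (chr2:74279198-74295932, plus strand), stood at 127.9 and 141.6 FPKM, a ratio of 1.11 (1.06 to 1.15). In control 156 of its 4587 fragments came from an assembled minus-strand model of SLC4A5 that runs over its exons. On its own models alone the ratio was 1.15 (1.10 to 1.19). SHMT2, which turns serine into glycine (chr12:55909623-55914985, plus strand), stood at 97.8 and 104.1 FPKM, a ratio of 1.06 (1.02 to 1.11). PCK2, mitochondrial phosphoenolpyruvate carboxykinase, stood at 23.4 and 24.4 FPKM, a ratio of 1.04 (0.959 to 1.14). ALDH1L2, which oxidises formyl-folate, stood at 1.48 and 1.76 FPKM, a ratio of 1.199 (0.989 to 1.46) from 182 and 266 fragments, the widest interval of this group. A log2 ratio above 0 was found for 4 of 4, against 48.4% of all genes, with a median of 0.12. For SHMT2 the sum over models gave 0.24, as 62.3% of its fragments in the library labelled knockdown, and none in control, lay on an assembled model that ends at 55914646, short of the RefSeq end.

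Among the transporters the exon densities of SLC7A5 and SLC7A1 had intervals that span 1, and that of SLC3A2 lay above 1. SLC7A5, the light chain of the large neutral amino acid exchanger (chr16:86421130-86460601, minus strand), stood at 231.9 and 231.8 FPKM from 17274 and 21036 fragments, a ratio of 0.999 (0.979 to 1.02), while the sum over models gave a log2 ratio of 0.14. SLC3A2, the heavy chain that SLC7A5 and SLC7A11 both need (chr11:62380060-62412931, plus strand), stood at 172.5 and 181.3 FPKM, a ratio of 1.05 (1.02 to 1.08). Its log2 ratio was 0.07 on exons and 0.27 by the sum, which passes 1.2-fold. SLC7A1, a carrier of arginine and lysine, stood at 29.2 and 29.1 FPKM, a ratio of 0.998 (0.954 to 1.04). The interval of SLC7A5, which has the most fragments, is the narrowest in the list.

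For SLC7A11 and SLC6A9 the direction turned with the strand of the models counted. SLC7A11, the cystine-glutamate exchanger (chr4:139304698-139382953, minus strand), stood at 24.2 FPKM in control and 28.4 FPKM in the library labelled knockdown, a ratio of 1.17 (1.12 to 1.22). Of its 5468 fragments in the latter, 1173 lay on an unspliced plus-strand model over its last exon that the control assembly does not hold. Without it the log2 ratio was −0.12, against 0.22 with it. The protocol describes no step that marks the strand. SLC6A9, a glycine transporter (chr1:44234742-44269751, minus strand), stood at 5.71 and 5.09 FPKM, a ratio of 0.892 (0.769 to 1.04). In control 70.2 of its 345 fragments came from an assembled model of its neighbour CCDC24 that runs into its exons, and on its own models alone the log2 ratio was 0.13.

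Of the tRNA genes AARS1, WARS1 and GARS1 had intervals above 1 on exons. AARS1, alanyl-tRNA synthetase (chr16:68843798-68880913, minus strand), stood at 112.6 and 120.4 FPKM, a ratio of 1.07 (1.03 to 1.11). WARS1, tryptophanyl-tRNA synthetase (chr14:99869878-99912433, minus strand), stood at 80.9 and 86.6 FPKM, a ratio of 1.07 (1.03 to 1.12). GARS1, glycyl-tRNA synthetase (chr7:30600706-30640173, plus strand), stood at 164.3 and 186.3 FPKM, a ratio of 1.13 (1.10 to 1.17). The direction of GARS1 turned with the measure: the sum over models gave 225.1 and 189.5 FPKM. In control its fragments were divided among the RefSeq model (4089) and 2 shorter assembled models (764 and 2587), whereas all 10231 of the library labelled knockdown lay on the RefSeq model. XPOT, the export receptor of tRNAs, stood at 23.4 FPKM in both libraries, a ratio of 1.00 (0.933 to 1.07). The sum over its models gave 27.01 and 23.6 FPKM, a log2 ratio of −0.19.

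STC2, a secreted glycoprotein, and VLDLR, a lipoprotein receptor, are the targets outside these pathways. STC2 (chr5:172674332-172689112, minus strand) stood at 23.2 and 24.98 FPKM, a ratio of 1.08 (1.02 to 1.14). Its log2 ratio was 0.11 on exons, −0.18 without unnamed models, −0.32 by the sum over models and −0.41 with every fragment of its named models. Counted in the last way, the ratio was 0.742 (0.700 to 0.787), below 1. In control its fragments beyond the RefSeq model lay on 2 assembled models named STC2. In the other library they lay on unspliced models with no name, of which 1 held 682 fragments, 483 of them on RefSeq exons. VLDLR had 2.14 and 6.84 fragments on its exons, too few for a difference to be shown.

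**Figure D3:**
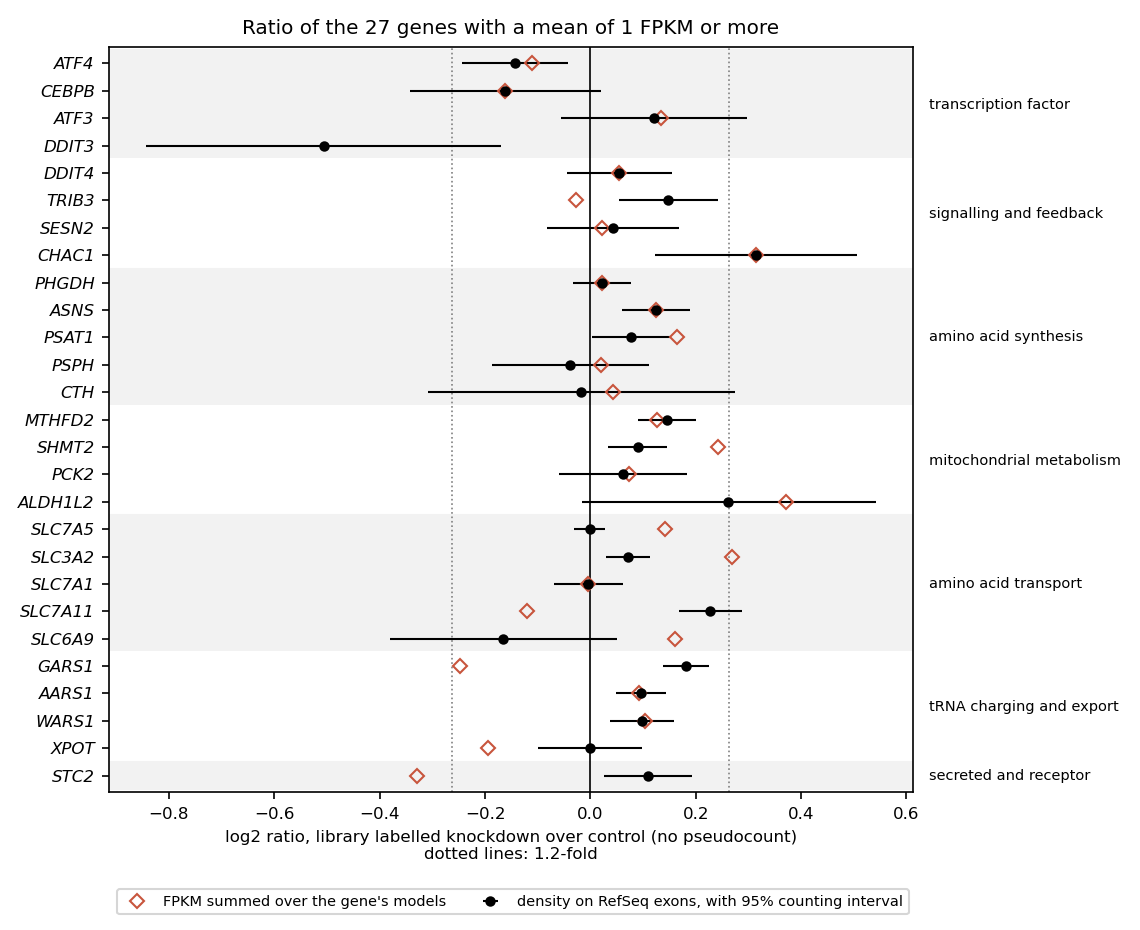
Log2 ratio of the library labelled knockdown over control without a pseudocount for the 27 measured genes, grouped by role. Black points are densities on RefSeq exons with exact 95% counting intervals, open diamonds are sums of FPKM over models and dotted lines mark 1.2-fold; the black points of 12 genes lie above 0 with their intervals, and for genes such as GARS1, SLC7A11, STC2 and SLC6A9 the diamond lies on the other side of 0.

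How the fragments of a gene were divided among its transcripts is an estimate of the assembler with no replicate error, and the models had the same introns in both assemblies for 12 of 27 genes. The RefSeq models held 27.6% of the fragments of SLC7A1 in control and 84.1% in the other library, 100% and 47.4% of those of SLC7A5, and 69.5% and 100% of those of MTHFD2. Genes with several models are given as examples. ATF4 was carried by both of its RefSeq models in each library, and its 2-exon model took 44.5% of its fragments in control, against 38.2% in the library labelled knockdown. ATF3 has models with different first exons. The share of the model that starts at 210805299 was 31.1% and 41.2%, and that of the model that starts at 210848593 was 56.7% and 42.8%. Scaled to the library totals, the former stood at 4.70 FPKM in control and 6.78 FPKM in the other library, and the latter, NM_001674, at 7.93 and 6.51 FPKM. For WARS1 the 11-exon model took 76.2% and 71.2%.

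In PSAT1 and SLC3A2 an assembled model was present in 1 library only. For PSAT1 it held 19.6% of the fragments in the library labelled knockdown, where the 8-exon RefSeq model held 52.1% against 66.9% in control. For SLC3A2 an assembled model held 18.5% in the library labelled knockdown, and the RefSeq model that starts at 62404920 held 65.3% against 82.1%. The long form that starts at 62380060 held 17.9% and 16.2%.

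**Figure D4:**
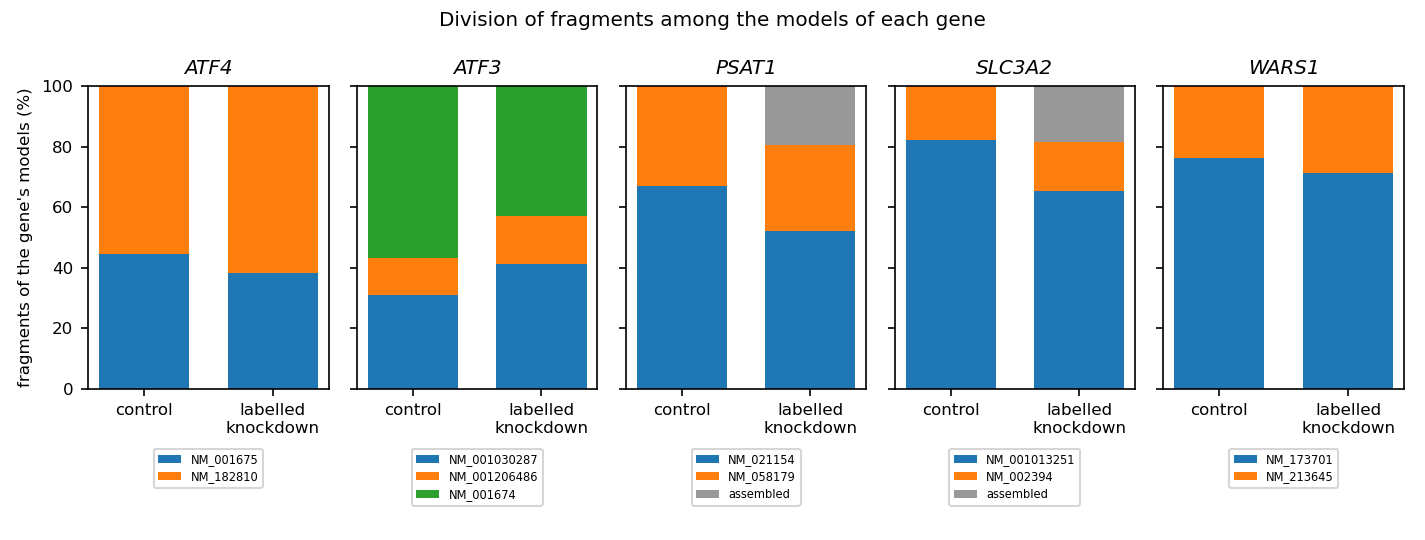
Share (%) of each gene's fragments on its RefSeq models and on assembled models (grey), in the control library and the library labelled knockdown, for ATF4, ATF3, PSAT1, SLC3A2 and WARS1. Grey is absent from control and reaches 19.6% in PSAT1 and 18.5% in SLC3A2.

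Genes with the promoter core and genes without it overlapped in their ratios. The 6 measured genes with the core had a median log2 ratio of 0.10 (−0.0036 to 0.29), with 5 above 0, against 48.4% of all genes. The 17 measured genes with a searched promoter and no core had a median of 0.04 (−0.45 to 0.18), with 10 above 0. The lowest of these is DDIT3, whose value comes from bases shared with MARS1, and the next is CEBPB at −0.15. The former were also higher in level, with a median of 57.1 FPKM against 41.3 FPKM.

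The other genes of the pathway were read from 8 further lists, all with a background of 2.09% of genes 1.2-fold or more higher, 3.67% lower and 48.4% above 0. The cytosolic aminoacyl-tRNA synthetases outside the list were the most even of them. Of 16 measured, 15 had a log2 ratio above 0, and the counting interval lay above 1 for 12 and below 1 for none, against 13% and 14% of all genes. Their median was 0.10, or 0.07 by the sum over models. TARS1 (136.7 and 154.2 FPKM, log2 ratio 0.17) and EPRS1 (121.9 and 133.9 FPKM, 0.13) were highest. FARSA (113.9 and 109.1 FPKM, −0.06) and FARSB (85.9 and 86.6 FPKM, 0.01), the subunits of the phenylalanyl enzyme, were lowest. None of the 16 reached 1.2-fold. SARS1, the lowest of them in level, stood at 50.8 and 54.9 FPKM, against a median of 13.5 FPKM over all genes. Intervals of the 16 are therefore narrow, and LARS1 counts as above 1 at a ratio of 1.04 (1.00 to 1.08). VARS1, not among the 16, was under 1 FPKM with 11 and 3 fragments, a ratio of 0.224 (0.0401 to 0.847). Only models on the main chromosomes were read, so fragments placed on other sequences are not counted.

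The kinases that phosphorylate eIF2α and genes that regulate them had 6 of 8 above 0 and a median of 0.05. The counting interval lay above 1 for 2 and below 1 for 1, against 13% and 14% of all genes. EIF2AK2, the sensor of double-stranded RNA known as PKR, stood at 14.2 and 17.98 FPKM, a ratio of 1.27 (1.17 to 1.37), and was the only 1 of the 8 past 1.2-fold. IMPACT followed at 0.11, and GCN1 (−0.06) and EIF2AK1 (−0.04) were lowest. The subunits of eIF2 and eIF2B and the phosphatases had 8 of 13 above 0, a median of 0.03 and none past 1.2-fold. Their interval lay above 1 for 3 and below 1 for 2. EIF2B3 (0.20) and EIF2S1 (0.14) were highest in log2 ratio, EIF2S3 (−0.16) and PPP1CA (−0.11) lowest. The sum over models gave −0.67 for EIF2S1.

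Partners of ATF4 and related bZIP factors had 9 of 14 above 0 and a median of 0.06, or −0.04 by the sum. Their counting interval lay above 1 for 4 and below 1 for 0, against 13% and 14% of all genes. ATF2 stood at 11.4 and 15.9 FPKM, a log2 ratio of 0.45 that was −0.03 by the sum over models, and was the only 1 of the 14 past 1.2-fold. CEBPG, the partner in amino acid control, stood at 32.1 and 36.0 FPKM, a ratio of 1.12 (1.06 to 1.19), with a log2 ratio of 0.16 by either measure. CEBPA (−0.12) and ATF7 (−0.09) were lowest.

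Known ATF4 targets outside the list were evenly divided, with 16 of 28 above 0, a median of 0.02 and none past 1.2-fold. Their counting interval lay above 1 for 7 and below 1 for 5, against 13% and 14% of all genes. HERPUD1, a protein of endoplasmic reticulum quality control, stood at 38.7 and 44.7 FPKM, a log2 ratio of 0.21. CCPG1 (0.18) was next, although it shares 3430 exonic bases with its neighbours. GDF15, a secreted stress cytokine, stood at 155.2 and 130.4 FPKM, a ratio of 0.840 (0.799 to 0.883), the lowest of them. BBC3 followed at −0.17, with 0.46 by the sum over models.

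In the remaining lists the share of genes above 0 lay near the background. The counting interval lay above 1 for 1 of 15 folate and serine genes, 3 of 19 sensing genes and 3 of 8 glutathione genes. It lay below 1 for 2, 2 and 1 of these, against 13% above and 14% below over all genes. Other folate and serine enzymes had 7 of 15 above 0 and a median of −0.02, with MTRR (0.18) and MTHFD2L (0.10) highest, GCSH (−0.23) low and SARDH, at 1.56 and 1.08 FPKM, the only gene past 1.2-fold (−0.30). Amino acid sensing and mTORC1 had 8 of 19 above 0 and a median of −0.02, with RRAGB (0.20) and RRAGD (0.17) highest and CASTOR1 (−0.24) and TSC2 (−0.14) lowest. Genes of glutathione metabolism had 4 of 8 above 0 and a median of 0.05. There CHAC2, the relative of CHAC1, stood at 17.5 and 20.5 FPKM (0.22) and GCLM at 26.1 and 29.5 FPKM (0.17), with OPLAH (−0.21) and GSR (−0.06) lowest.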

How the data were processed

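For each library the authors deposited 1 transcript assembly made with Cufflinks, which holds RefSeq and assembled models, per the file headers. The submitters' processing notes also name TopHat, Bowtie, SAMtools, Picard and bedtools and the build hg18, with no versions given in the sources used here. The deposited value, named FPKM in the files, proved not to be divided by depth. Where a model took all of its locus, its interval (value ± 2 Poisson SD) gave back a fragment number, whole within 0.02 in 19345 of 19346 loci (control) and 20551 of 20555 (knockdown label). The value equalled that number over 2 × (length − 47 bases), and models with no strand had a larger correction (245.9 and 252.2 bases when long). Fragment numbers of all models came from this relation. Divided by the deposited share of the locus they were whole for 20957 of 20957 and 20735 of 20736 models. In 4 loci of the library labelled knockdown a failed interval was replaced by the relation. FPKM here is scaled to each library's total of recovered fragments. Each assembly was made on its own, so in the main measure the fragments of a model were taken as evenly spread along it, and those falling on the RefSeq exons of a gene were counted, whatever the strand of the model. The alternative summed scaled FPKM over named models. Symbols came from RefSeq's GRCh38.p14 table by accession (39696 accessions, 543 by the file, 857 unnamed), used for names and for promoter sequences, and no coordinates were converted. Ratios have exact Clopper-Pearson 95% intervals and levels exact Poisson intervals. Where models share fragments, their division is an estimate and adds error not in these intervals. Genes with near-identical copies are uncertain, as the handling of fragments that map to several places is not given in the sources used here. The method was tested on simulated data. In all 12 alternatives were tried.

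The members and lists were chosen with earlier results of these data known. All members are named. Of each other list the 2 highest and 2 lowest log2 ratios among genes of 1 FPKM or more are named. Python 3.11.15, NumPy 2.4.6, pandas 2.3.3 and SciPy 1.17.1 were used. Chromatin data were not analysed here.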

Additional observations from a re-analysis of the deposited data

How the results depend on the processing

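No paired analysis was possible because each group holds 1 library, and leaving out a library would leave no comparison. The median log2 ratio of the list lay between 0.06 and 0.09 over 12 alternatives, and no member reached 2-fold in any. The count 1.2-fold or more higher was 1 (CHAC1) except by the sum over models, with 2 (SLC3A2 too), with a pseudocount of 5 FPKM, with 0, and with all fragments of named models, also those past the RefSeq exons, with 0. The sum also called more of all genes (9.88% higher, 11.5% lower, 355 of 11561 at 2-fold, against 94 of 12058 on exons). The count 1.2-fold or more lower was 1 in the main measure (DDIT3), by the sum (STC2) and with all fragments of named models (STC2). It was 2 in TPM and 2 with no filter on low values, both adding NUPR1 (8 and 4 fragments). It was 0 with models of the gene's strand or of none, 0 with named models, 0 on exonic bases of no other gene and 0 over genes with the same introns. The alternatives with all fragments of named models, with exonic bases of no other gene and with the same introns were chosen after seeing the data, for CHAC1, for DDIT3 and for genes whose models differ. DDIT3 drops out of each of these 4, by construction. USP49 was 0.14 on exons and −0.88 by the sum over models, and −1.25 with all fragments of its named models. Of the values of single genes, 247 moved by less than their counting interval and 23 by more, all in DDIT3, GARS1, PSAT1, SHMT2, SLC3A2, SLC6A9, SLC7A11, SLC7A5, STC2, TRIB3 and XPOT, and in each of these the alternative changes how models or bases are counted. Depth limits NUPR1, CBS and VLDLR, each with 8 or fewer fragments per library, and no depth makes up for the missing replicates.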
